A study of Mus musculus with 9 samples.

Results

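Glutathione transferases, glutathione peroxidases, peroxiredoxins and superoxide dismutases were examined together with the enzymes that make and reduce glutathione and with thioredoxins and glutaredoxins. The rule that picks them uses gene symbols and no threshold on a measured value. The families were Gsta, Gstk, Gstm, Gsto, Gstp, Gstt, Gstz, Mgst, Gpx, Prdx and Sod, taken without symbols ending in -ps, and Gclc, Gss, Gsr, Glrx, Glrx2, Txn1, Txn2 and Txnrd2 were added. This gave 52 genes of the 57180 identifiers in the count table, of which 25 are glutathione transferases.

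The RNA came from Lgr5-GFP+ intestinal stem cells (ISCs), the dividing cells at the base of the crypts of the small intestine, sorted by flow cytometry from mice. In Lgr5-EGFP-CreERT2; Kansl1 f/f animals the Lgr5 promoter drives green fluorescent protein and a Cre recombinase that tamoxifen activates, and Cre removes floxed parts of Kansl1, which encodes a scaffold of the NSL histone acetyltransferase complex. Libraries labelled KANSL1-KO came after daily tamoxifen for 3 days (KO day 3, 3 libraries) or 4 days (KO day 4, 3 libraries). The 3 control libraries are labelled KANSL1-WT and their mice received corn oil. The labels give no age, do not say whether controls carried the floxed alleles, and do not state that the replicates of a group came from different mice. The p-values therefore rest on the spread between libraries, and that spread may be technical. Loss of KANSL1 and tamoxifen cannot be told apart in a comparison with the controls, nor can dose and time between the KO groups.

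Glutathione is a small thiol built from glutamate, cysteine and glycine. Transferases attach it to reactive compounds and peroxidases use it to reduce peroxides, while peroxiredoxins reduce peroxides with electrons passed on by thioredoxin, and superoxide dismutases turn superoxide into hydrogen peroxide. Many of these genes are known targets of the transcription factor NRF2, and in the intestine the lining meets both dietary electrophiles and peroxides made by bacteria and by the cells themselves.

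The libraries held 8400458 to 21484679 counts, and the groups differed in more than the genes described. Levels are given in CPM, counts scaled to a fixed library size after TMM correction for composition. Kansl1 was at 4.46, 11.4 and 9.83 CPM in control replicates 1 to 3 and at 2.81, 2.99 and 2.55 at KO day 3, a log2 fold change of -1.62 (SE 0.45, edgeR adjusted p = 0.12). In the libraries labelled KO day 4 it was at 2.93, 5.09 and 8.96 CPM (-0.63, SE 0.46, edgeR adjusted p = 0.34). The libraries labelled KO day 4 replicates 2 and 3 thus overlapped the controls; since the count covers the entire gene, reads from outside the deleted part enter it and it checks the labels only in part. Transcripts of the mitochondrial genome took 20.03% ± 5.08 of the control counts, 27.3% ± 7.32 of those at KO day 3, and 69.4% ± 2.63 by KO day 4 (SD, n = 3). In CPM of nuclear counts, 10 stem cell markers summed to 18800 to 22732 (controls), 12683 to 18307 (day 3) and 2756 to 7566 (day 4), while 10 Paneth cell markers summed to 18708 to 45618, 28447 to 45164 and 105403 to 140282. Mast cell markers were at 0.10 to 0.644 in controls, where Fcer1a, Ms4a2, Mcpt1 and Mcpt2 had no count, then at 22.6 to 196 (day 3) and 462 to 1286 (day 4). Across genes, KO day 3 replicate 1 (r of 0.946 and 0.950 with its group) and the library labelled KO day 4 replicate 3 (0.913 and 0.919) stood apart from their groups, against 0.978 to 0.982 among controls.

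Together the 52 genes took 0.725% to 0.781% of the nuclear counts of controls, 0.756% to 0.909% of those of KO day 3, and 0.543% to 0.571% of those of KO day 4. Per kilobase of exon, the control ISCs held most RNA of Txn1, the cytosolic thioredoxin (311 CPM per kb), and of the peroxidases Gpx1 (177) and Gpx2 (156), followed by the peroxiredoxin Prdx1 (135) and the omega class transferase Gsto1 (100.4). Among the transferases the microsomal enzymes supplied 33.4% ± 3.91 of the summed level per kb in controls, the omega, zeta and kappa classes 24.7% ± 6.83, the mu class 18.2% ± 1.43, the pi class 14.4% ± 1.35, the theta class 7.68% ± 1.007 and the alpha class 1.66% ± 0.37 (SD, n = 3). Of the 52 genes, 43 passed the filter on low counts and were tested. The other 9 were Gpx5, Gpx6, Gpx7, Gpx8, Gsto2, Gstt4, Prdx2-rs3, Prdx6b and Sod3. No library held a count of Gpx6, known from olfactory tissue, or of the processed pseudogene Prdx2-rs3. Gpx7, a peroxidase of the endoplasmic reticulum, had 29 counts over the controls but 1 at KO day 3 and none at KO day 4, which is at least 2.38-fold lower with a floor of 3 counts for the group and was not tested.

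**Figure D1:**
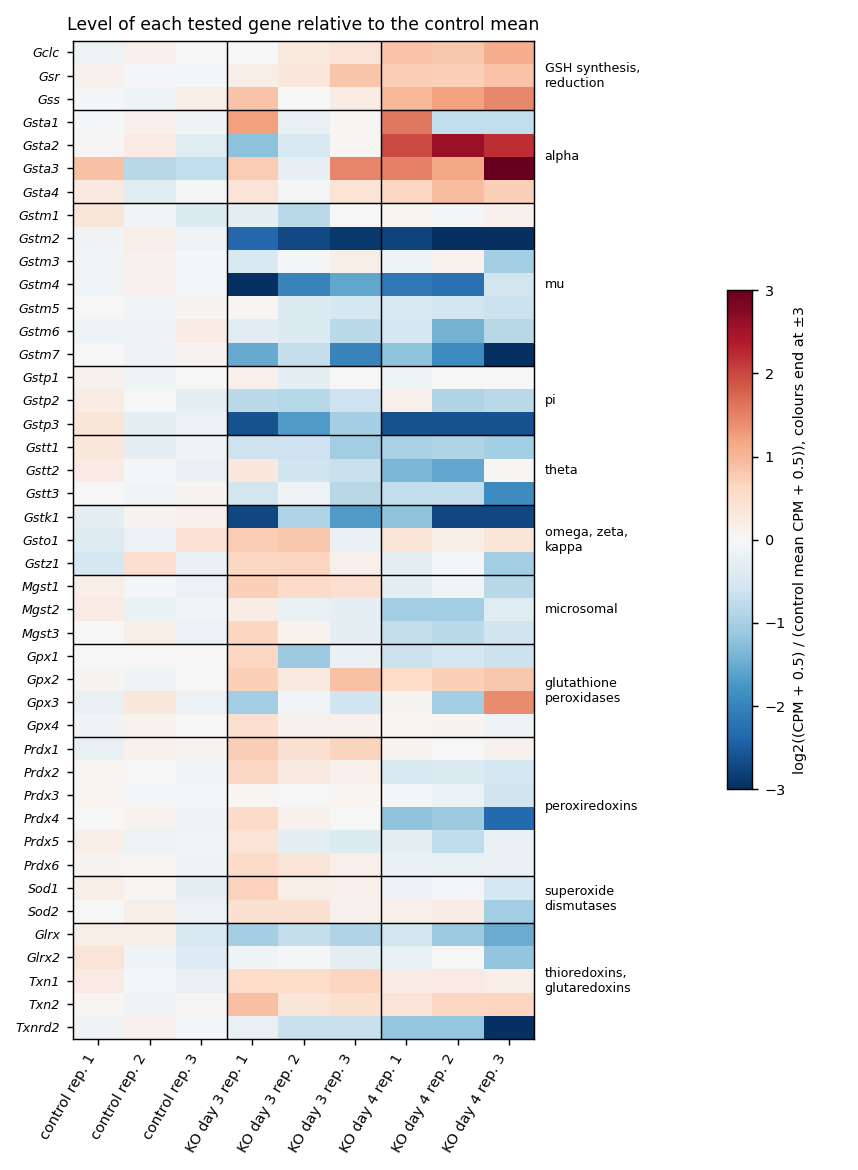
Level of the 43 tested genes in each of the 9 libraries, as log2 of (CPM + 0.5) over the control mean + 0.5, by class (rows) and library (columns), red for higher and blue for lower than the control mean. Gstm2 is dark blue in all 6 KO libraries, and Gclc, Gss, Gsr and Gsta2 are red in the 3 KO day 4 libraries.

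Promoters were searched because many of these genes are known to be driven through the antioxidant response element, the motif that NRF2 binds with a small MAF partner. Its core, TGACNNNGC, was searched on both strands from 250 bases before to 50 bases after each RefSeq start site (GRCm38.p6). It was found in 6 of 60 promoters of 44 matched genes (10%), against 12.4% of all 32851 promoters of the same length. Gclc, Gsr, Gsta4, Gstt2, Prdx2-rs3, Prdx6, Prdx6b and Sod3 had no promoter entry and were not searched. Gclc and Gsr are among the genes that rose at KO day 4. Sequence farther than 250 bases before a start site was not searched either, so the search cannot show that a gene lacks the element. The 6 sites are shown because they are all that the search found. Of the 5 genes higher at KO day 4 that had a promoter entry, 1 (Gsta3) held the core, and of the 9 lower genes, all with an entry, none did, against 5 of the 24 uncalled genes with an entry. A match is a description of the letters, not of binding. Each line runs 5′ to 3′ on the strand of its gene, with the match in capitals; in the last 3 the core lies on the opposite strand.
Gsta3: ctcaggcaTGACATTGCatttttct
Gstm5: ccgcccacTGACCACGCggagggcg
Gstm7: tgaagaccTGACAAAGCgaagccaa
Mgst1: ggggcttgGCACGGTCAggaggcgg
Prdx1: gggaaagcGCTGAGTCAtcccccgt
Sod1: caaggtggGCGTGGTCAgactcagg
They lie at chr1:21240456-21240480, chr3:107895804-107895828, chr3:107931727-107931751, chr6:138140463-138140487, chr4:116685458-116685482 and chr16:90220698-90220722, and the match begins 121, 42, 129, 56, 133 and 56 bases before the start site. Of these genes, Gsta3 rose at KO day 4, and Mgst1 and Prdx1 were lower at KO day 4 than at KO day 3.

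After 3 days of tamoxifen, 1 of the 43 tested genes had changed: Gstm2, a mu class transferase, fell. No gene of the set was called higher. The mu and theta transferases lay mostly below the controls, and several abundant peroxidases and thioredoxins lay above them without passing the test. Gstm2 (ENSMUSG00000040562, chromosome 3, 107981702 to 107986453, minus strand, GRCm38) was at 20.1, 24.9 and 19.7 CPM in controls and at 3.84, 2.86 and 2.48 at KO day 3. The groups were far apart, with the lowest control several times the highest KO library. Its log2 fold change was -2.83 (SE 0.52, edgeR adjusted p = 0.044), which is 7.12-fold lower. In all 13405 genes, 0.298% were called lower at day 3 and 0.142% higher by the same test.

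With edgeR's quasi-likelihood test at an unadjusted p under 0.05, 8 genes of the set were higher and 6 lower, Gstm2 among the 6. Of all genes tested, 7.55% were higher and 8.29% lower at that threshold. Without regard to a test, 9 lay above every control in all KO day 3 libraries, against 12.1% of all genes tested. Another 11 lay below, against 18% of all genes tested. Gstp3, among the 6 and the 11, and Gstk1, among the 11, passed the filter on low counts only through the controls and add no support. Gpx2, the selenium-dependent glutathione peroxidase of the gut lining, was at 536, 462 and 511 CPM in controls and at 825, 609.5 and 927 at KO day 3 (0.65, SE 0.18, edgeR adjusted p = 0.12). Prdx1, a cytosolic peroxiredoxin, was at 350.2, 446 and 436 CPM in controls and at 680.4, 564 and 656 at KO day 3 (0.63, SE 0.15, edgeR adjusted p = 0.092). Neither overlapped the controls. Txn1 had a log2 fold change of 0.58, the mitochondrial thioredoxin Txn2 of 0.59 and the microsomal transferase Mgst1 of 0.60. DESeq2 called these 5 higher and Gstm2, Gstm4, Gstt1 and Glrx lower, and limma voom with quality weights called 6 higher and 6 lower. In all genes tested DESeq2 called 2.93% higher and 3.61% lower, and limma voom 3.59% and 7.03%.

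The single call at KO day 3 held without the libraries labelled KO day 4 replicate 1 or replicate 3 and was lost without any one of the other 7 libraries, with log2 fold changes from -3.01 to -2.70 and edgeR adjusted p from 0.0054 to 0.24 over the 9 fits. A fit with the replicate number as a block lost it too, though no label states that the numbers pair the libraries.

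After 4 days, 7 of the 43 tested genes were higher than in controls (11.1% of all genes tested were) and 9 were lower (11.5% of all genes tested were). The enzymes of glutathione synthesis and reduction, Gclc, Gss and Gsr, all rose, with the alpha class transferases Gsta2 and Gsta3, Gpx2 and Txn2. In the same libraries 6 of 10 stem cell markers were called lower and 0 higher, and Lgr5 was not called (-0.71, edgeR adjusted p = 0.092). All 10 Paneth cell markers were called higher, with 7 of 8 tuft cell and 7 of 10 enteroendocrine markers. So were 8 of 8 tested mast cell and 5 of 6 tested other immune cell markers. The 8 mast cell markers had only 0 to 5 counts over the controls and passed the filter on low counts only through KO libraries. The same holds for Ptprc, Tyrobp, Adgre1 and Gzmb among the other immune cell markers, so these calls add no support. Of 8 goblet cell markers 5 were called higher and 1 lower, and of 9 tested enterocyte markers 2 and 2. The part of these cell types in the results was not tested. Those that fell were the transferases Gstm2, Gstp3, Gstt1, Gstt3, Mgst2 and Mgst3, the peroxiredoxins Prdx2 and Prdx4, and the glutaredoxin Glrx. Of these 9, Gstp3 passed the filter on low counts only through the controls, so its call adds no support. The median log2 fold change of the 43 genes was -0.37, and that of all genes tested was -0.06. Without regard to a test, 8 of the 43 lay above every control in all KO day 4 libraries and 19 lay below. Of all 13405 genes tested, 2766 lay above and 3541 below. Gstp3 and Gstk1, among the 19, passed the filter on low counts only through the controls. These directions are relative to TMM scaling. With library size alone the median of all genes was -1.95, no gene of the set was called higher (2.15% of all genes were) and 39 were called lower (80.3% of all genes were), with Gclc, Gss, Gsr, Gpx2 and Txn2 turned to lower. Since RNA was measured in bulk, fewer cells of a type and less RNA per cell cannot be told apart.

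**Figure D2:**
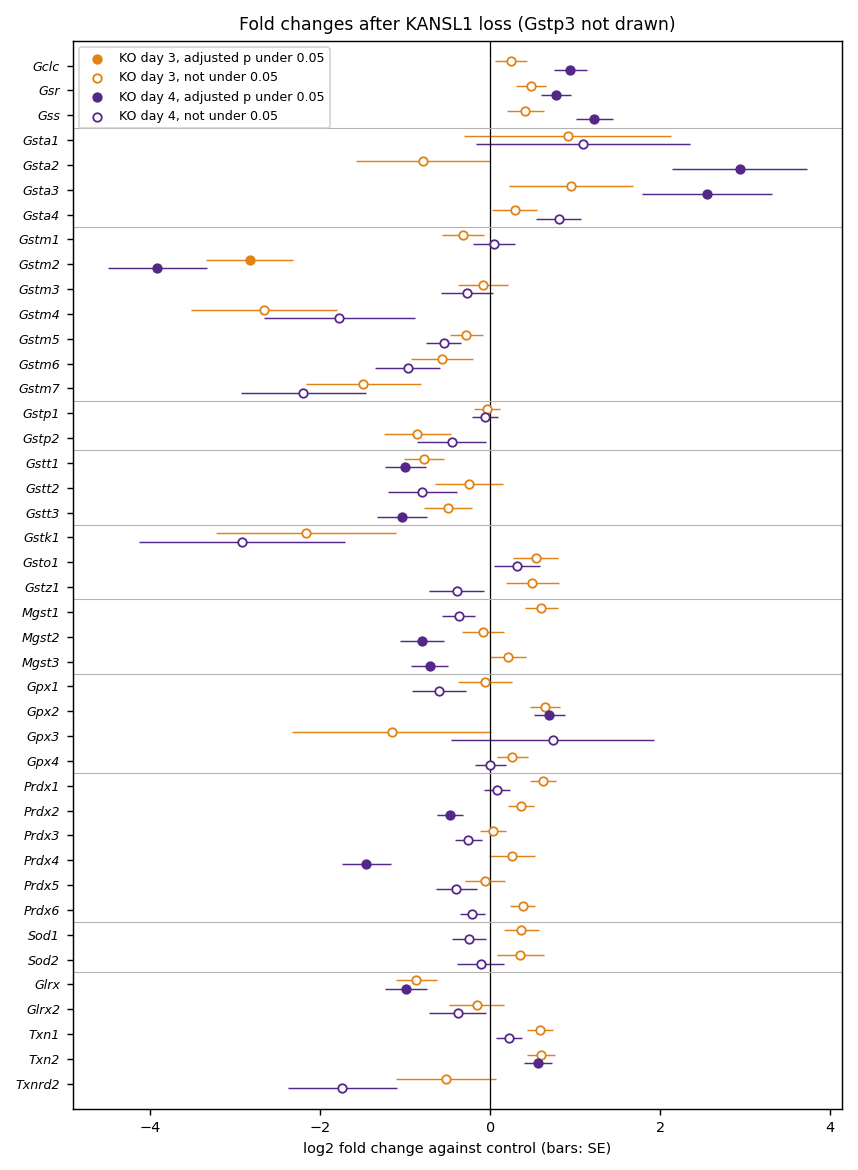
Log2 fold change of 42 tested genes at KO day 3 and at KO day 4 against control, with SE bars and TMM scaling, and filled points for an edgeR adjusted p under 0.05. Gstp3, with no count at KO day 4, has no bounded fold and is not drawn. Gstk1 is drawn but passed the filter on low counts only through the controls. Gstm2 is the 1 filled point at day 3, and at day 4 filled points lie on both sides of 0.

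Gss, glutathione synthetase, which adds glycine in the last step (chromosome 2, 155563181 to 155592810), was at 57.7, 54.9 and 67.7 CPM in controls and at 119.9, 138 and 164 at KO day 4. Every KO day 4 library lay well above the controls (log2 fold change 1.23, SE 0.22, edgeR adjusted p = 0.0034). Exons of the neighbouring Acss2 and of 2 annotated antisense genes overlap 15.4% of its exon bases on the opposite strand, and reads of these cannot be told apart where the counting ignored strand. Gclc, the catalytic subunit of glutamate-cysteine ligase and the rate-limiting step (chromosome 9, 77754535 to 77794485), was at 15.6, 19.1 and 17.1 CPM in controls and at 31.6, 30.5 and 37.4 at KO day 4, again without overlap (0.94, SE 0.19, edgeR adjusted p = 0.0066). Gsr, the reductase that restores oxidised glutathione with NADPH (chromosome 8, 33652523 to 33698163), was at 108, 95.2 and 94.7 CPM in controls and at 167, 162 and 180.5 at KO day 4 (0.77, SE 0.18, edgeR adjusted p = 0.012). At KO day 3 all 3 genes had mean levels between these, with log2 fold changes of 0.41, 0.24 and 0.48 that did not pass the test.

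The alpha class transferases, known from liver and intestine, were scarce in these cells. Their share of the transferase level per kb was 1.42% to 2.08% in control libraries, 1.34% to 2.74% in KO day 3 libraries and 4.39% to 5.58% in KO day 4 libraries, so that the KO day 4 libraries did not overlap the others. Gsta2 (chromosome 9, 78331018 to 78355788) was at 0.699, 0.892 and 0.404 CPM in controls, at 0, 0.347 and 0.709 at KO day 3 and at 4.10, 6.52 and 4.93 at KO day 4 (2.94, SE 0.79, edgeR adjusted p = 0.023). Gsta3 (chromosome 1, 21240589 to 21265661) was at 4.74, 1.09 and 1.21 CPM in controls and at 7.62, 5.88 and 28.4 at KO day 4 (2.55, SE 0.76, edgeR adjusted p = 0.034). Its highest value was in the library labelled KO day 4 replicate 3. That library also held the highest sums of Paneth (140282) and mast cell markers (1286 CPM of nuclear counts). It was highest as well for goblet, enteroendocrine, tuft, other immune, and stromal and endothelial markers, but not for enterocyte markers. It had the lowest sum of stem cell markers and the fewest nuclear counts. Without that library the log2 fold change of Gsta3 was 1.52 and edgeR adjusted p = 0.15, and without control replicate 1, the highest control, it was 3.57 (edgeR adjusted p = 0.020). Gsta4, which handles the lipid aldehyde hydroxynonenal, was at 8.77, 5.68 and 7.01 CPM in controls and at 11.3, 14.2 and 12.1 at KO day 4, without overlap (0.80, SE 0.27, edgeR adjusted p = 0.052).

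Gsta1, at 0.311, 0.430 and 0.269 CPM in controls and at 1.99, 0 and 0 at KO day 4, had values too low and too scattered to compare (1.10, SE 1.26, edgeR adjusted p = 0.56). Reads of Gsta1 and Gsta2 are hard to assign, since 90.5% of the 50-base words of Gsta1 transcripts and 49.8% of those of Gsta2 occur in other genes. The first 60 coding bases of both are shown for this reason. They differ at 0 positions, so none is in capitals.
Gsta1: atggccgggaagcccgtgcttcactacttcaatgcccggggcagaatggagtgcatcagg
Gsta2: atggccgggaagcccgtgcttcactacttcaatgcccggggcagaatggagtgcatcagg
The value of Gsta2 is therefore uncertain as that of a single gene. For Gsta3 that share was 0.27%.

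The mu class, 7 genes in one array on chromosome 3, took a smaller share of the transferase level per kb in the KO libraries, at 16.5% to 19.3% in control libraries, 9.51% to 14.4% in KO day 3 libraries and 13.2% to 14.7% in KO day 4 libraries. Gstm2 fell furthest, to 2.70, 1.11 and 0 CPM in the libraries labelled KO day 4 replicates 1 to 3 (-3.92, SE 0.59, edgeR adjusted p = 0.0015). From 1711 counts over the controls it went to 181 at KO day 3 and 30 at KO day 4. It made up 16.6% ± 2.31 of the mu class per kb in controls, but 3.55% ± 0.74 on KO day 3 and 1.42% ± 1.48 on KO day 4 (SD, n = 3). The day 4 call held in all 9 fits that left out 1 library, with values from -5.09, without the library labelled KO day 4 replicate 1, to -3.46, without the library labelled KO day 4 replicate 3.

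Gstm1, which lies beside it and is the most abundant mu transferase per kb in controls together with Gstm5, was at 45.5, 33.1 and 26.4 CPM in controls and at 35.7, 34.3 and 38.3 at KO day 4. These overlapped (0.05, SE 0.25, edgeR adjusted p = 0.92). The coding starts of this pair are shown because reads must tell a gene that fell from a close relative that did not pass the test. Capitals mark the 12 of 60 bases at which they differ.
Gstm1: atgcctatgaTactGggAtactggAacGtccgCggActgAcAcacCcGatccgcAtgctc
Gstm2: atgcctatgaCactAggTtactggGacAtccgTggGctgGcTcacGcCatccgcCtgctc
Of the 50-base words of Gstm2 transcripts, 5.66% occur in other genes, and 18.9% of those of Gstm1 do.

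Of the other mu genes none passed the test, although several lay apart from the controls. Gstm7 was at 6.09, 5.58 and 6.38 CPM in controls, at 1.79, 3.47 and 1.13 at KO day 3 and at 2.34, 1.27 and 0 at KO day 4 (-2.20, SE 0.74, edgeR adjusted p = 0.051). Gstm4 was at 4.50, 5.32 and 4.67 CPM in controls, at 0, 0.824 and 1.31 at KO day 3 and at 0.703, 0.636 and 3.13 at KO day 4 (-1.78, SE 0.89, edgeR adjusted p = 0.17). Both were below every control in all 6 KO libraries, as was Gstm6. At KO day 4 alone, 3541 of all 13405 genes tested lay below every control. Gstm5 (-0.55) and Gstm6 (-0.97) were also below every control at KO day 4, and Gstm3 (-0.28) overlapped them.

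**Figure D3:**
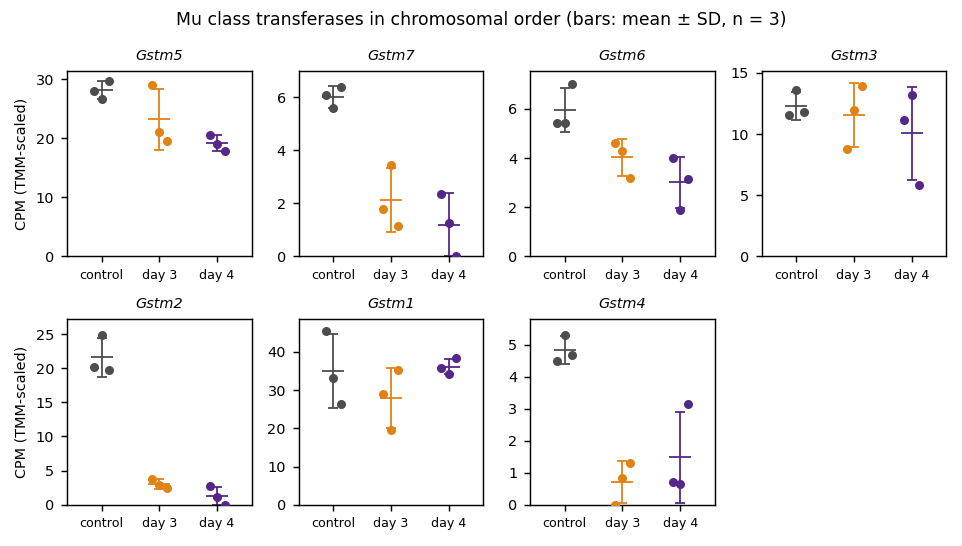
CPM of the 7 mu class transferases in each library, in their order along chromosome 3, with the mean ± SD of 3 libraries per group. Gstm2, Gstm7, Gstm4 and Gstm6 are lower in all 6 KO libraries than in any control, while Gstm1 and Gstm3 overlap the controls.

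Within 250 kb on either side, 14 other genes were tested and 2 were called at KO day 4: Gnai3, a G protein subunit, rose (0.78, edgeR adjusted p = 0.011) and Sort1, a sorting receptor, fell (-1.11, edgeR adjusted p = 0.0011). Their median log2 fold change was -0.08 at KO day 3 and 0.16 at KO day 4, against -0.57 and -0.97 for the 7 mu genes. Of all genes tested 11.1% were called higher and 11.5% lower at KO day 4. These are descriptions, with no test of the difference.

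Among the pi class, Gstp1, the main enzyme of the class, was at 91.0, 76.0 and 82.1 CPM in controls and at 74.3, 83.2 and 82.0 at KO day 4, with overlapping groups (-0.06, SE 0.15, edgeR adjusted p = 0.82). Within 250 kb of the class, 23 other genes were tested and 2 rose and 2 fell at KO day 4, with a median of -0.44 against -0.46 for the 3 pi genes. Gstp2 had a log2 fold change of -0.46; it shares 98.1% of its coding bases with Gstp1, so the split of reads between them is uncertain. Gstp3 (chromosome 19, 4057477 to 4059569), which passed the filter only through the controls, was at 3.42, 2.05 and 2.20 CPM there, at 0, 0.433 and 1.03 at KO day 3 and at 0 in all 3 libraries labelled KO day 4. With the same floor of 3 counts, its 199 control counts make it at least 16.3-fold lower at KO day 4. A gene that enters through the group where it is high had to differ, so no p is given for it.

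Of the theta class, which acts on small halogenated compounds, Gstt1 (chromosome 10, 75783813 to 75798584) was at 24.6, 16.2 and 18.0 CPM in controls, at 12.6, 12.5 and 9.29 at KO day 3 and at 9.73, 10.2 and 9.40 at KO day 4. All 6 KO libraries lay below the controls, and the change at KO day 4 was -1.002 (SE 0.24, edgeR adjusted p = 0.014). Gstt3, beside it, was at 35.9, 34.1 and 38.4 CPM in controls and at 21.4, 21.3 and 9.40 at KO day 4 (-1.04, SE 0.29, edgeR adjusted p = 0.027). Gm20441 overlaps 13.6% of its exon bases on the same strand. Gstt2, the most abundant of the class by CPM, was at 52.0, 42.2 and 38.0 in controls and at 16.6, 14.6 and 45.7 at KO day 4, overlapping in 1 library (-0.80, SE 0.41, edgeR adjusted p = 0.18). The 9 other genes tested within 250 kb of this group had a median log2 fold change of -0.19 at KO day 4, against -1.002 for the 3 tested theta genes.

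The microsomal enzymes, membrane proteins that also reduce lipid peroxides, took 29.0% to 36.3% of the transferase level per kb in control libraries. Their share was 35.9% to 40.4% in KO day 3 libraries and 24.8% to 27.5% in KO day 4 libraries. Mgst3 was at 95.7, 111 and 85.4 CPM in controls and at 58.6, 55.5 and 64.3 at KO day 4 (-0.71, SE 0.22, edgeR adjusted p = 0.037). Mgst2 was at 31.9, 23.1 and 25.4 CPM in controls and at 12.9, 12.7 and 20.8 at KO day 4 (-0.80, SE 0.25, edgeR adjusted p = 0.042). Neither overlapped the controls, but Mgst3 was called in 2 and Mgst2 in 3 of the 9 fits that left out 1 library. Mgst1 was at -0.37 and did not pass the test. Of the remaining classes, Gsto1, which also reduces dehydroascorbate, varied within controls from 156 to 273 CPM and was at 265, 232 and 259.7 at KO day 4 (0.31, SE 0.27). Gstz1, of tyrosine breakdown, had a log2 fold change of -0.40. Gstk1, of mitochondria and peroxisomes, went from 221 control counts to 8 at KO day 4. Like Gstp3, it passed the filter on low counts only through the controls, so no fold or p is given for it.

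**Figure D4:**
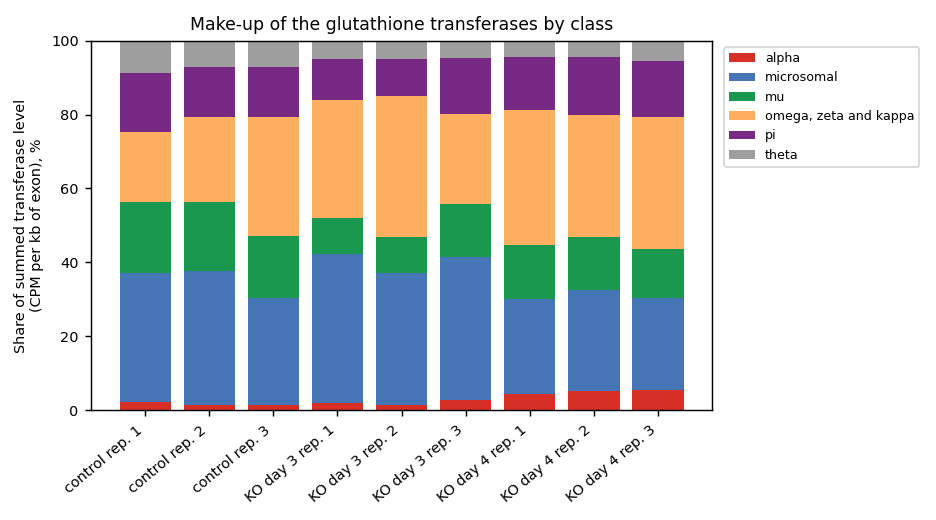
Share of each class in the summed level of the 25 transferase genes, in CPM per kb of exon, as stacked bars for the 9 libraries (each bar adds to 100%). The alpha class widens in the 3 KO day 4 bars, to 4.39% to 5.58%, and the theta class is narrower in all 6 KO bars than in any control.

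Among the glutathione peroxidases, Gpx2 (chromosome 12, 76792333 to 76795554) was at 739, 822 and 885 CPM at KO day 4, above all controls (0.70, SE 0.18, edgeR adjusted p = 0.018). Per kb it was at 156 in controls and 253 at KO day 4. Gpx1, the widespread cytosolic enzyme, was at 259, 253 and 254 CPM in controls and at 163, 178 and 164 at KO day 4. The groups did not overlap, yet the change did not pass the test (-0.60, SE 0.32, edgeR adjusted p = 0.19), and at KO day 3 its libraries spread from 120.2 to 394. Gpx4, which protects membranes from lipid peroxides and ferroptosis, was at 22.7 ± 1.70 CPM in controls and 22.7 ± 1.89 at KO day 4 (SD, n = 3). The log2 fold change had an SE of 0.19 and an edgeR adjusted p of 0.99, and 34.7% of its 50-base words occur in other genes, chiefly a pseudogene. Gpx3, a secreted enzyme, was at 0.388, 0.793 and 0.404 CPM in controls and was not called.

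Peroxiredoxins went lower at KO day 4 or did not pass the test. Prdx4, the peroxiredoxin of the endoplasmic reticulum (chromosome X, 155323918 to 155340754), was at 51.2, 55.4 and 48.2 CPM in controls, at 77.7, 56.0 and 51.9 at KO day 3 and at 21.9, 24.0 and 9.85 at KO day 4. The KO day 4 libraries lay below all others (-1.46, SE 0.28, edgeR adjusted p = 0.0051), and the call held in all 9 fits that left out 1 library. Prdx2, a cytosolic enzyme abundant in red blood cells, was at 235, 227 and 213 CPM in controls and at 161, 170.3 and 155 at KO day 4 (-0.47, SE 0.15, edgeR adjusted p = 0.046). In CPM of nuclear counts, the control libraries held 0.143 to 2.10 of red blood cell markers, and these were at 0 in the KO day 4 libraries; their part in the result was not tested. Exons of Junb and Rnaseh2a on the opposite strand overlap 11.5% of its exon bases. Prdx1 (0.08), mitochondrial Prdx3 (-0.26), Prdx5 (-0.40) and Prdx6 (-0.21) did not pass the test against the controls. Of the dismutases, cytosolic Sod1 (-0.25) and mitochondrial Sod2 (-0.11) did not either.

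Of the thioredoxin and glutaredoxin genes, Glrx, which frees proteins from mixed disulfides with glutathione (chromosome 13, 75839868 to 75850154), was at 98.1, 98.2 and 63.0 CPM in controls, at 43.4, 52.5 and 46.0 at KO day 3 and at 58.8, 40.2 and 30.7 at KO day 4. All KO libraries lay below the controls, and it passed the test at KO day 4 (-0.99, SE 0.25, edgeR adjusted p = 0.016). Txn2 was at 89.2, 79.3 and 86.7 CPM in controls and at 112, 131 and 134 at KO day 4 (0.56, SE 0.17, edgeR adjusted p = 0.034). Its mitochondrial reductase, Txnrd2, was at 13.5, 15.96 and 14.1 CPM in controls and at 6.21, 6.20 and 0 at KO day 4, below all controls without passing the test (-1.74, SE 0.64, edgeR adjusted p = 0.072). Txn1 (0.22) and mitochondrial Glrx2 (-0.38) were not called.

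The number of calls at KO day 4 depended on which libraries entered. Shares over all genes are not given for these fits, so the counts show only how the calls moved. Leaving out control replicate 1, 2 or 3 left 5, 2 and 2 genes higher and 3, 4 and 5 lower; without the library labelled KO day 4 replicate 2 the counts were 4 and 5, and without KO day 3 replicate 1, which enters the shared estimate of the spread, 8 and 14. Gclc, Gss, Gstm2 and Prdx4 were called in each of the 9 fits that left out 1 library. Gstt1 was lost without control replicate 1 (-0.81, edgeR adjusted p = 0.071), and Gsr without control replicate 2 (0.055) or 3 (0.051). Glrx was lost without control replicate 1 (edgeR adjusted p = 0.060), control replicate 2 (0.064) or the library labelled KO day 4 replicate 2 (0.056). Gpx2 was lost without control replicate 2 (edgeR adjusted p = 0.084), control replicate 3 (0.059) or the library labelled KO day 4 replicate 2 (0.053), and Gstt3 without any one control (0.063 to 0.078). Gsta3 was lost also without control replicate 2 (edgeR adjusted p = 0.11) or 3 (0.11). Gsta2 was lost without any one control or the library labelled KO day 4 replicate 2 (edgeR adjusted p = 0.064 to 0.091), and Txn2 without any one of these or the library labelled KO day 4 replicate 3 (0.073 to 0.13). Mgst2 held only without KO day 3 replicate 1, KO day 3 replicate 3 or the library labelled KO day 4 replicate 3, and Mgst3 and Prdx2 only without KO day 3 replicate 1 or 3. In all these fits the direction stayed the same.

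**Figure D5:**
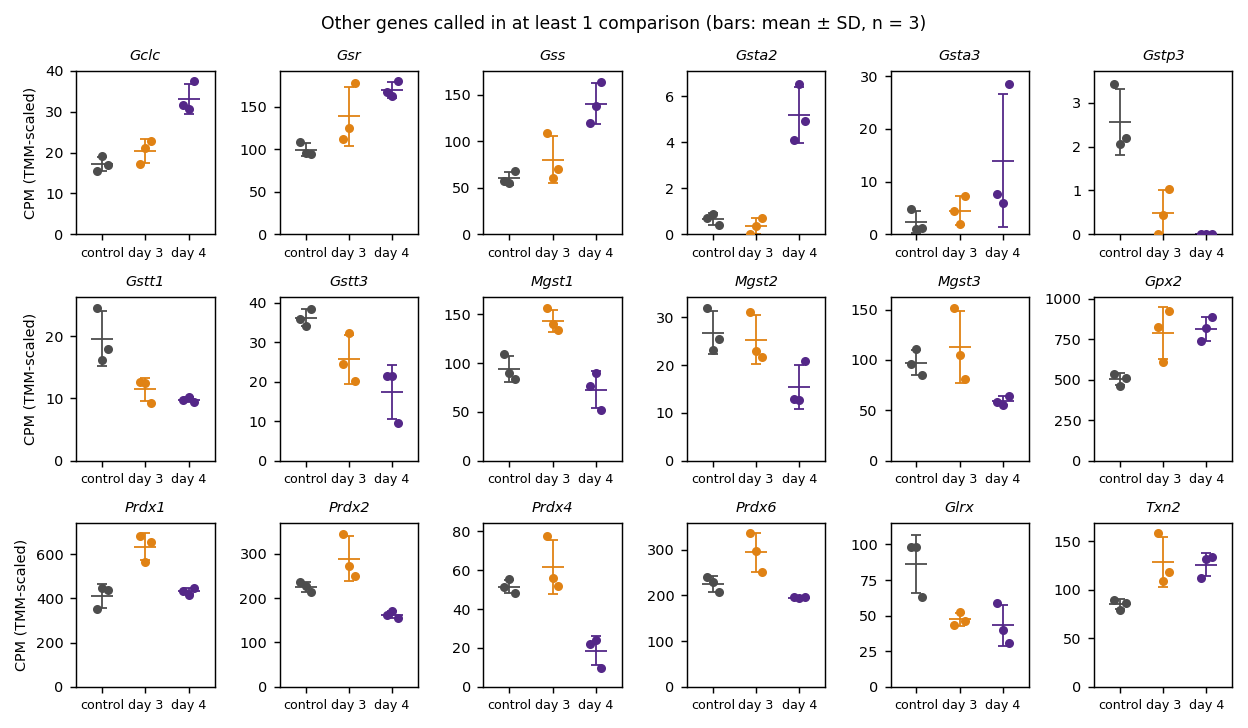
CPM of the 18 genes other than Gstm2 that were called in at least 1 comparison, in each library, with the mean ± SD of 3 libraries per group and axes starting at 0. Gclc, Gss and Gsta2 are higher in the 3 KO day 4 libraries than in all others, Prdx4 is lower, and Prdx1, Prdx6 and Mgst1 peak at KO day 3.

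Between KO day 3 and KO day 4, Gclc, Gss and Gsta2 rose, while the peroxiredoxins Prdx1, Prdx2, Prdx4 and Prdx6 and the microsomal transferases Mgst1 and Mgst3 fell. Mgst2 (edgeR adjusted p = 0.085), Prdx3 and Gsr did not pass the test. Of the 43 tested genes 3 were higher at KO day 4 (6.52% of all genes tested were, near the share in the set) and 6 were lower (6.03% of all genes tested were). This comparison shares its KO libraries with the comparisons above. Gclc rose by 0.70 (SE 0.19, edgeR adjusted p = 0.038), Gss by 0.81 (SE 0.22, edgeR adjusted p = 0.035) and Gsta2 by 3.73 (SE 0.83, edgeR adjusted p = 0.017). Prdx4 fell by 1.72 (SE 0.29, edgeR adjusted p = 0.0057).

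Prdx1, at 680.4, 564 and 656 CPM at KO day 3, was at 435, 417 and 447 at KO day 4 (-0.55, SE 0.15, edgeR adjusted p = 0.039). At KO day 4, 2 of 3 values lay within the range of the controls and the third was just above it. Prdx6, which also has phospholipase activity, was at 336, 296 and 249.99 CPM at KO day 3 and at 195, 194 and 196 at KO day 4 (-0.59, SE 0.15, edgeR adjusted p = 0.027). Mgst1 was at 156, 139.8 and 134 CPM at KO day 3 and at 76.4, 89.5 and 52.4 at KO day 4 (-0.97, SE 0.20, edgeR adjusted p = 0.012). None of these overlapped between the KO times. Prdx2 (-0.83) and Mgst3 (-0.92) were called as well. With library size alone, Gsta2 was the 1 gene called higher and Gclc and Gss turned to lower. That scaling called 1.41% of all genes tested higher and 69.5% lower. Leaving out KO day 3 replicate 2 or the library labelled KO day 4 replicate 2 left 0 higher and 3 lower, and leaving out control replicate 1, control replicate 2, KO day 3 replicate 3 or the library labelled KO day 4 replicate 3 left 1 higher. Mgst1, Prdx2 and Prdx4 were called in each of the 9 fits that left out 1 library. Without KO day 3 replicate 3 the value of Gsta2 was 4.63. Gsta2 and Mgst3 were lost without KO day 3 replicate 2 or the library labelled KO day 4 replicate 2. Gss held only without control replicate 3, KO day 3 replicate 1 or the library labelled KO day 4 replicate 1, Prdx6 only without control replicate 1, control replicate 3 or KO day 3 replicate 3, Prdx1 only without control replicate 1, and Gclc in none of them (edgeR adjusted p = 0.052 to 0.093).

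Genes that supply or use glutathione and NADPH around these enzymes went in both directions at KO day 4, in 6 lists that held 64 tested genes. At KO day 3 edgeR called 0 of them, with 7 higher and 4 lower at an unadjusted p under 0.05, against 7.55% and 8.29% of all genes tested. DESeq2 called 1 higher and 1 lower there, and limma voom 3 and 4. The counts at KO day 4 stand against 11.1% higher and 11.5% lower in all genes tested. Of 14 tested genes of glutathione supply and breakdown, 3 rose and 3 fell at KO day 4, with a median of 0.11. Those that rose were Chac1, which breaks glutathione down (5.02, edgeR adjusted p = 0.00058), the cystine importer Slc7a11 (3.67) and Gclm, the modifier subunit of glutamate-cysteine ligase (1.005). Gclm was at 26.7 ± 1.91 CPM in controls and 53.8 ± 16.6 at KO day 4 (SD, n = 3). Those that fell were Oplah, which opens oxoproline (-3.70), and the gamma-glutamyl transferases Ggt7 (-2.02) and Ggt6 (-1.38).

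Of 18 thioredoxin partners and other thiol and peroxide enzymes, 3 rose and 2 fell (median -0.11). Srxn1, which repairs overoxidised peroxiredoxins, was at 14.8 ± 3.40 CPM in controls and 58.9 ± 2.83 at KO day 4 (1.99, SE 0.23, edgeR adjusted p = 0.00052), and the sestrins Sesn2 (2.10) and Sesn3 (2.56) rose too. Ccs, the copper chaperone of Sod1, fell by 2.08 (SE 0.36, edgeR adjusted p = 0.0030), while Sod1 itself was at -0.25. Catalase, Cat, fell by 0.89. In the NADPH list 3 of 11 identifiers rose and 2 fell: malic enzyme Me1 (3.29) and Idh1 (0.93) rose, as did 1 of the Nnt identifiers, and Taldo1 (-0.66) and Idh2 (-0.68) fell. Nnt has 2 identifiers that went opposite ways (2.10, called, and -1.46), so its value is uncertain. Of NRF2 and its regulators, 2 of 7 rose, Mafk (1.20) and Bach1 (0.96). The gene for NRF2, Nfe2l2, was at 0.49 (edgeR adjusted p = 0.069). Of the 8 genes of conjugate export and mitochondrial import and the 6 of selenoprotein synthesis, edgeR, DESeq2 and limma voom called 0 at KO day 4, and 0 had an unadjusted p under 0.05 by edgeR; their medians were 0.21 and 0.04.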

How the data were processed

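The authors deposited 1 table of raw counts per Ensembl gene for 9 libraries. Reads were aligned with HISAT2 2.0.4 to GRCm38, per the submitters' processing notes; how reads were counted, with which strand setting and annotation, is not given in the sources used here. Symbols came from GENCODE M21, which named 51933 of the 57180 identifiers. Members and gene lists were chosen with earlier results of these data known.

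All 9 libraries entered 1 fit of edgeR's quasi-likelihood test (edgeR 4.0.16, R 4.3.3) with TMM scaling and the filterByExpr filter on low counts. This filter asks for the level of 10 counts at the median library size in at least 3 libraries, the size of a group. It also asks for 15 counts in all. The p-values were adjusted by Benjamini-Hochberg over 13405 genes, with a threshold of 0.05. DESeq2 1.42.0, limma 3.58.1 voom, other scalings and filters, leaving out mitochondrially encoded genes, a replicate block and leaving out each library were alternatives. The SE given with an edgeR log2 fold change is the absolute log2 fold change divided by the square root of the test's F statistic. The analysis was tested on simulated data. Every member called in any of the 3 comparisons is named, with at least the 2 most abundant uncalled members per class, and up to 4 called genes per partner list with the smallest p. Gsta4, Gstm4 to Gstm7, Txnrd2, Gstk1 and Gpx3 and further uncalled members, and partners beyond 4 or uncalled, were named after their values were seen. Control libraries held 12164479 to 17913787 counts, KO day 3 libraries 8400458 to 21484679 and KO day 4 libraries 11174583 to 16943055; the genes described took 78082 to 108463, 61876 to 126985 and 16902 to 31589 of these. No replicates were alike within sampling noise, with chi-square per degree of freedom from 12.8 to 89.2 over replicate pairs.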

Additional observations from a re-analysis of the deposited data

How the results depend on the processing

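With library size alone the median of all genes was -0.39 at KO day 3, -1.95 at KO day 4 and -1.54 between KO days. The counts of genes called higher and lower became 0 and 4 at KO day 3, 0 and 39 at KO day 4, and 1 and 37 between KO days. Of all genes tested, 0.291% were called higher and 3.57% lower at KO day 3. At KO day 4 these shares were 2.15% and 80.3%, and between KO days 1.41% and 69.5%. Log2 fold changes then turned negative at KO day 4 for Gclc (-0.97), Gss (-0.69), Gsr (-1.12), Gpx2 (-1.20), Txn2 (-1.33) and Prdx1 (-1.84), and between KO days for Gclc (-0.82), Gss (-0.75), Gsr (-1.23) and Gpx2 (-1.49). Gsta2 and Gsta3 stayed positive at KO day 4 without a call (1.06 and 0.68). Relative to that median at KO day 4, Gclc was at 0.98, Gss at 1.26 and Gsr at 0.83. At KO day 3, DESeq2 called 5 higher and 4 lower and limma voom 6 and 6, no filter on low counts gave 2 lower, and leaving out KO day 3 replicate 1 together with the library labelled KO day 4 replicate 3, chosen with earlier results known, gave 2 lower. At KO day 4 voom called 15 lower (15.2% of all genes tested were), and leaving out those 2 libraries gave 14. DESeq2 and voom kept all 16 calls at KO day 4. There they called 15.6% and 15.3% of all genes tested higher, and 14.7% and 15.2% lower. For fits that left out libraries, changed the filter or used the replicate block, shares over all genes are not given. Counts from those fits show only how the calls moved. Calls lost at KO day 4 in other fits that kept all libraries were Mgst2, Mgst3 and Prdx2 with RLE size factors, Txn2 without a filter, Mgst2 with a minimum mean CPM of 5 and Mgst2 with the replicate block. With mitochondrially encoded genes left out and TMM scaling kept, 0 of the 16 calls at KO day 4 and 0 of the 9 between KO days were lost. Without the 2 libraries Gsta3 was lost (1.53, edgeR adjusted p = 0.14). Between KO days, Gclc was lost without a filter and with voom, Prdx1 with a minimum mean CPM of 5, and Gclc, Prdx1 and Prdx6 without the 2 libraries. Leaving out 1 library gave 0 to 1 lower at KO day 3, 2 to 8 higher and 3 to 14 lower at KO day 4, and 0 to 2 higher and 3 to 6 lower between KO days. The cause of these changes was not tested. Same-numbered replicates of control and KO day 3 deviated together weakly (correlations of 0.15, 0.080 and 0.202, and each library correlated best with its own number, -0.163 to -0.018 otherwise), a hint from the data and not from the labels. Those of KO day 4 did not, with -0.029 to -0.018 against control and -0.065 to 0.019 against KO day 3. Since no more than 2 of 9 pairs exceeded 0.1, the numbers were not taken to pair the libraries; with the replicate as a block there were 0 higher and 0 lower at KO day 3 (Gstm2 edgeR adjusted p = 0.096), 7 and 8 at KO day 4, and 3 and 7 between KO days. Depth limits the KO day 4 libraries most, with 3115374 to 5614186 nuclear counts against 9996919 to 13980785 in controls, and 1, 4 and 6 tested genes of the set had no count in the libraries labelled KO day 4 replicates 1 to 3.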
